A study of Mus musculus with 6 samples.

Results

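The interferon response and MHC class I genes are described here as a set of 45 mouse genes in 6 stable clones of the fibroblast line NIH3T3. The set was taken by gene symbol from the annotation of the array's probes. No cut on a measured value was applied, but the genes were chosen with earlier results of these data known. Of the 45 genes, 43 had at least 1 probe, 86 probes in all, on an array that named 19057 genes, and 34 had a probe bright enough to be tested. Ifi44 and Ifi203 had no probe named for them and were not analysed here.

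The study asked how the transcriptome of NIH3T3, an immortalized line from NIH Swiss mouse embryos, differs when the human protein FEAT is overproduced. The 3 FEAT clones (labelled FEAT-3, FEAT-15 and FEAT-20) carry human FEAT under the elongation factor 1alpha promoter in pEF-DEST51. They grew out during 7 days in blasticidin S at 10 µg/ml and were chosen as colonies with raised FEAT protein. The 3 control clones (labelled ΔccdB-1, ΔccdB-2 and ΔccdB-3, here control 1, 2 and 3) were stably transfected with the same vector lacking the ccdB gene, and the selection of the controls is not given in the sources used here. Each clone is a separate stable line measured on 1 array, so a difference between 2 clones of a group has no replicate check. No treatment with an interferon is described for any clone.

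Type I interferons bind a shared receptor whose JAK kinases phosphorylate STAT proteins, among them STAT2, which acts with IRF9 at the interferon-stimulated response element (ISRE) of target genes. Interferon gamma acts through the gamma-activated site (GAS) and through IRF1. The targets include sensors of viral RNA, antiviral enzymes and GTPases, and the immunoproteasome, peptide transporter and class I chains that show peptides to cytotoxic T cells. Fibroblasts express class I molecules and can answer both kinds of interferon.

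The arrays held 45281 probes each. Levels are given as scaled intensities, the linear values of the deposited value table, in which every array has the same mean and background is not subtracted. Each array had its own background limit, between 94.2 and 109 on this scale, and 36.9% to 39.8% of the probes of an array exceeded it. Folds, log2 differences and tests come from background-corrected, quantile-normalized log2 values, so a fold is larger than the ratio of 2 dim scaled intensities. Of 10 fibroblast markers, 9 exceeded the limit on all 6 arrays. Of 12 leukocyte and antigen-presenting cell markers on the array, 10 were above it on no array, Ptprc (CD45) and Csf1r among them, and the exceptions were Lyz2 and Cd14. None of 5 endothelial markers exceeded it on all 6 arrays. The scaled intensity summed over the 10 fibroblast markers was 59515 to 61699 in the controls and 62142 to 70339 in the FEAT clones, and its bearing on the comparisons was not tested.

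The set ran from genes far above the background limit to genes at background. H2-K1 (114 to 147 by its brightest probe) and Irf9 (129 to 143) were above the limit only narrowly. On all 6 arrays 20 genes exceeded the limit, and 5 more (Dhx58, Oas1g, Igtp, Gbp3 and Parp14) did so on some. The other 18 had no probe above the limit on any array, with 30 probes between 53.5 and 101. They include several genes best known as strongly interferon-induced: the transcription factor Irf7, the RNA sensor Ifih1 (MDA5), the ISG15 protease Usp18, and the effectors Ifit1, Oas1a, Oas2, Oasl1, Oasl2, Mx1, Mx2 and Rsad2 (viperin). Ifi47, Iigp1, Ifi204, Rtp4, Xaf1, the immunoproteasome subunit Psmb8 and the nonclassical class I gene H2-T22 completed this group. A probe at background gives only an upper bound for its gene. All 8 interferon genes that had been listed as ligands (Ifnb1, Ifng and Ifna11 among them) were likewise above the limit on no array.

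**Figure D1:**
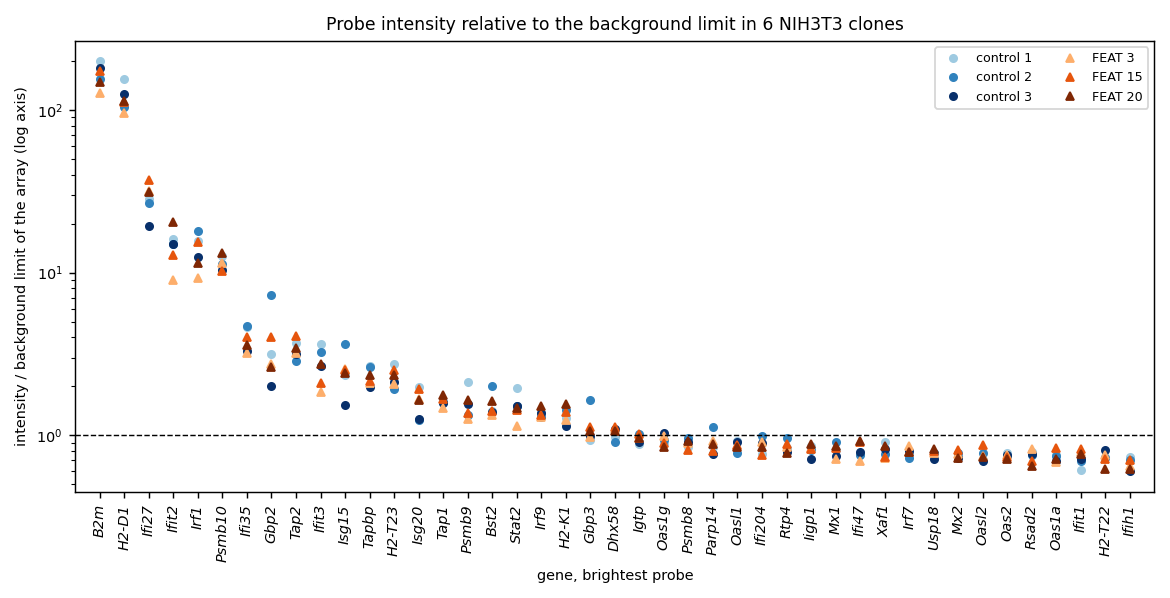
Intensity of the brightest probe of each of 43 genes divided by the background limit of its array, on a log axis, with circles for the 3 control clones and triangles for the 3 FEAT clones. The 20 genes at the left lie above the dashed line (the limit) on all 6 arrays, B2m and H2-D1 highest, and 18 genes at the right lie below it on every array.

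The promoters were read for 34 genes of the set that had an entry in the RefSeq table (GRCm38.p6), over the 250 bases before the annotated start. An ISRE, written as GAAA, any 2 bases and GAAA again, on either strand, occurred in 15 of the 34 (44.1%), against 3.46% of 27025 genes with a promoter entry. A GAS written as TTCNNNGAA, which reads the same on both strands, occurred in 7 of 34 (20.6%), against 8.13%. These letters were present among genes with and without signal. Of 18 genes above the limit on all 6 arrays 7 held the ISRE, and of 11 genes at background 4 did. The 60-base windows below are from genes whose clone values are described next, with Rsad2 as a gene at background, and capitals mark the matched letters, overlapping matches being joined. The capitals mark an ISRE in the first 5 and a GAS in the Irf1 window. The Bst2 window also holds a GAS, which overlaps its ISRE and is not marked.
Isg15: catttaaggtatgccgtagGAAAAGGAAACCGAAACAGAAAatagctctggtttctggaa
Gbp2: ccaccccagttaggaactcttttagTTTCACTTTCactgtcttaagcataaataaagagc
Gbp3: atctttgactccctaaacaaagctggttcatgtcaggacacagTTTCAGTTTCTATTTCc
Bst2: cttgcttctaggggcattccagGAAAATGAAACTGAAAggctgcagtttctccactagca
Rsad2: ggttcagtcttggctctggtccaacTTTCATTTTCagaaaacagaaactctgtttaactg
Irf1: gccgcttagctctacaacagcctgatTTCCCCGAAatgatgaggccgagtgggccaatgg
In the order printed, these lie at chr4:156200856-156200915 (minus strand), chr3:142620579-142620638 (plus), chr3:142559956-142560015 (plus), chr8:71537565-71537624 (minus), chr12:26456538-26456597 (minus) and chr11:53769898-53769957 (plus). Each is upstream of the annotated start of its gene and overlaps no other annotated gene. The Isg15 window holds 3 overlapping matches, and the Gbp3 and Bst2 windows 2 each. A match is a description of the letters and not a measured binding site, and the table follows the reference genome, not NIH3T3.

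FEAT clones were compared with control clones to ask whether the interferon and class I programme differs with FEAT. No gene of the set was called at an adjusted p under 0.05, by limma's moderated test with Benjamini-Hochberg adjustment over 27169 probes, against 0.225% of all 13315 genes tested. At an unadjusted p under 0.05 there were 4 of 34 (11.8%): Irf1, Stat2 and Ifit3 lower and Ifi27 higher with FEAT, against 10.1% of all genes. The 3 FEAT clones lay wholly below the 3 controls for 2 genes (7.24% of all genes) and wholly above for 1 (7.95%). These shares are near or below those of the array as a whole. The median log2 difference, FEAT minus control, was -0.085 over the 34 genes, 13 above and 21 below 0, against 0.0071 over all genes. It was 0.029 without control 2. With 3 clones a group, the smallest two-sided p of an exact permutation test is 0.1, so single genes were read from the model across all probes.

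**Figure D2:**
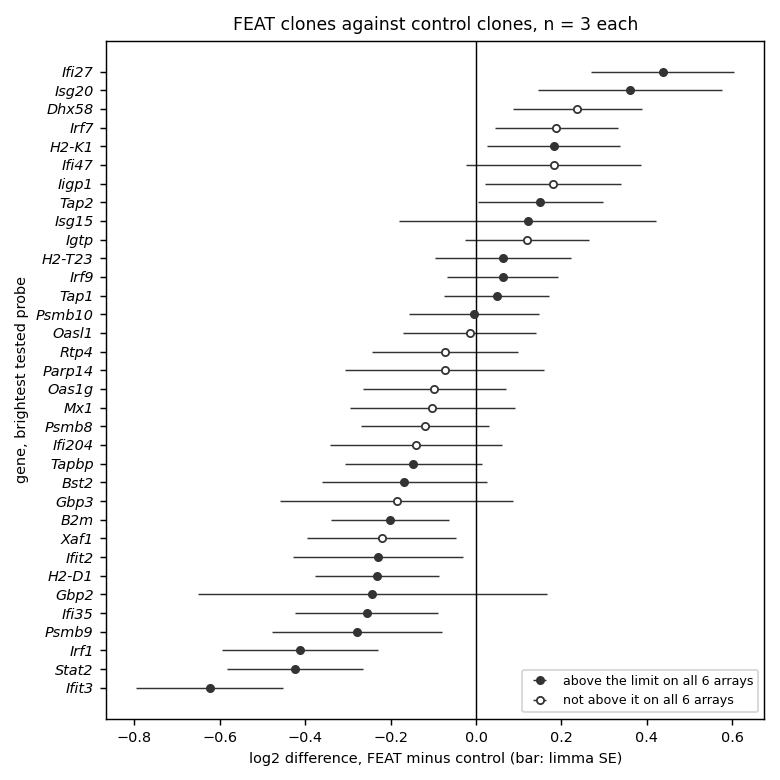
Log2 difference, FEAT minus control, of the brightest tested probe of 34 genes, with limma's standard error as bars (3 clones a group). Filled points are genes above the background limit on all 6 arrays. The values run from -0.62 (Ifit3) to 0.44 (Ifi27), and no gene passed the adjusted threshold.

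Among the transcription factors, Irf1, which drives class I and immunoproteasome genes, gave scaled intensities of 1508, 1834 and 1260 in control 1, 2 and 3 and of 1018, 1475 and 1075 in FEAT 3, 15 and 20. Control 2 was highest and FEAT 3 lowest, and FEAT 15 lay within the control range. The log2 difference was -0.41 ± 0.18 (SE, n = 3 and 3, limma adjusted p = 0.538), and the other 4 Irf1 probes gave -0.31, -0.48, -0.29 and -0.17. Stat2, a partner of IRF9, gave 189, 153 and 153 in the controls and 125, 137 and 138 in the FEAT clones. The groups did not overlap, with control 1 apart from the other controls. The Stat2 difference was -0.42 ± 0.16 (SE, n = 3 and 3, limma adjusted p = 0.433). Irf9, the DNA-binding subunit of the same complex, was nearly level, at 133, 131 and 138 in the controls and 141, 129 and 143 in the FEAT clones (log2 difference 0.06 ± 0.13, limma adjusted p = 0.925).

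Dhx58 (LGP2), a regulator of RNA sensing, was at the edge of detection with 95.1, 92.7 and 109 in the controls and 120, 108 and 100 in the FEAT clones. By this probe it exceeded the limit in control 3 and in all FEAT clones, and the groups overlapped (log2 difference 0.24 ± 0.15, limma adjusted p = 0.686). A second probe exceeded it in control 2 and 3 and in FEAT 3 and 15, with a difference of 0.03. The other RNA sensor of the set, Ifih1, was at background in every clone.

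Of the antiviral effectors, the FEAT clones were lowest against control for Ifit3, a member of the IFIT family that binds viral RNA. Ifit3 gave 354, 331 and 266 in the controls and 202, 202 and 259 in FEAT 3, 15 and 20. Every FEAT clone was below every control, though FEAT 20 and control 3 were close. The log2 difference was -0.62 ± 0.17 (SE, n = 3 and 3, limma adjusted p = 0.248). A dimmer Ifit3 probe read 177, 162 and 136 against 105, 112 and 112, and its difference of -0.77 had the lowest limma adjusted p of any probe of the set, 0.141. In FEAT 3 this probe was below the background limit of the array (109), so its value there gives only a bound. The IFIT genes are close paralogs, so a probe may also take up signal of a neighbour, which was not tested.

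Ifit2, from the same gene cluster, had a different pattern: 1548, 1516 and 1504 in the controls and 989, 1239 and 1921 in FEAT 3, 15 and 20. The controls were within 0.06 of each other on the log2 scale, whereas the FEAT clones spanned 0.88, from below to above the controls. The difference between group means was -0.23 ± 0.20 (SE, n = 3 and 3, limma adjusted p = 0.780). The second Ifit2 probe gave the same order of the FEAT clones, at 633, 810 and 1185.

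Isg20, an exonuclease that degrades RNA, read 191, 126 and 127 in the controls and 181, 184 and 155 in the FEAT clones. Control 1 was above all FEAT clones and the other controls were below them. The log2 difference was 0.36 ± 0.21 (SE, n = 3 and 3, limma adjusted p = 0.665). Oas1g, an oligoadenylate synthetase with near-identical relatives, exceeded the limit in control 3 only, at 104.

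Ifi27, a small mitochondrial interferon-induced protein, was the gene with FEAT clones highest against control. It gave 2752, 2726 and 1949 in the controls and 3477, 3566 and 2967 in FEAT 3, 15 and 20. All FEAT clones were above all controls, and control 3 was the lowest clone. The log2 difference was 0.44 ± 0.17 (SE, n = 3 and 3, limma adjusted p = 0.447), while a second probe gave 0.31 with overlapping groups. Ifi35, a leucine-zipper protein of cytokine signalling, read 451, 479 and 332 in the controls and 350, 387 and 339 in the FEAT clones. Control 3 was level with the FEAT clones (log2 difference -0.26 ± 0.17, limma adjusted p = 0.695).

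No gene of the antigen presentation branch was called. B2m, the light chain of every class I molecule, gave 19289, 15740 and 18071 in the controls and 13906, 16674 and 13893 in the FEAT clones. FEAT 3 and FEAT 20 lay below all controls and FEAT 15 among them (log2 difference -0.20 ± 0.14, limma adjusted p = 0.713). A second bright B2m probe read 18339, 14993 and 16272 against 13068, 14800 and 13436, a difference of -0.21. By its scaled intensities all FEAT clones were below all controls, but by its normalized values the groups overlapped. H2-D1, a classical class I heavy chain, gave 14924, 10602 and 12579 against 10428, 10700 and 10716. By this probe the FEAT clones were within 0.02 of each other on the log2 scale and level with control 2. The H2-D1 difference was -0.23 ± 0.14 (SE, n = 3 and 3, limma adjusted p = 0.679), and its other probes above the limit gave -0.08 and 0.10. By both of these every FEAT clone was above control 2, with 6660, 8049 and 8240 against 5786, and 382, 438 and 387 against 314.

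H2-K1, the other classical heavy chain on the array, read 123, 146 and 114 in the controls and 135, 133 and 147 in the FEAT clones, with overlapping groups (log2 difference 0.18 ± 0.16, limma adjusted p = 0.779). A second H2-K1 probe above the limit on all arrays gave -0.048. Class I genes are polymorphic between mouse strains and alike in sequence, so the low H2-K1 reading cannot be set against the high H2-D1 reading, and cross-hybridisation was not tested. H2-T23 (Qa-1), a ligand of natural killer receptors named here after its values were seen, gave 266, 195 and 213 against 226, 243 and 223, the FEAT clones lying inside the control range (log2 difference 0.06). Its second probe gave 263, 210 and 210 against 224, 213 and 193, with FEAT 20 below every control and a difference of -0.13.

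The peptide-loading genes gave small differences. Tap1, a subunit of the peptide transporter, was the most level gene of the branch, at 156, 163 and 158 in the controls and 161, 160 and 166 in the FEAT clones (log2 difference 0.05 ± 0.12, limma adjusted p = 0.941). Its partner Tap2 read 358, 289 and 319 against 348, 392 and 325 (0.15 ± 0.15, limma adjusted p = 0.809). Tapbp (tapasin), which holds class I chains to the transporter, read 258, 267 and 199 against 230, 207 and 220 (-0.15 ± 0.16, limma adjusted p = 0.834). In each of these 3 genes the groups overlapped.

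The immunoproteasome subunits replace constitutive proteasome subunits and change which peptides are cut. Psmb9 (LMP2) gave 206, 135 and 156 in the controls and 137, 132 and 154 in the FEAT clones, with control 1 alone high (log2 difference -0.28 ± 0.20, limma adjusted p = 0.727). Psmb10 (MECL-1) gave 1221, 1143 and 1045 against 1246, 982 and 1250 (-0.0048 ± 0.15, limma adjusted p = 0.996), and its second probe a difference of 0.03. Psmb8 (LMP7) was at background. The constitutive counterparts Psmb5, Psmb6 and Psmb7 were above the limit in all clones, with differences of -0.15, -0.10 (0.04 by a second Psmb6 probe) and -0.0055 and none called.

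Differences among the control clones were asked for by the choice of the genes, and among genes above the limit on all arrays the widest were those of Gbp2, a guanylate-binding GTPase induced by interferon gamma. Only 1 of 3 Gbp2 probes exceeded the limit, the others being at background on every array. By that probe Gbp2 gave 308, 737 and 202 in control 1, 2 and 3 and 299, 385 and 248 in FEAT 3, 15 and 20. Control 2 was the highest and control 3 the lowest of the 6 clones, a normalized range of 4.38-fold. The FEAT clones lay between them, so the log2 difference of -0.24 ± 0.41 (SE, n = 3 and 3, limma adjusted p = 0.903) rested on control 2, and it was 0.34 without that clone. Isg15, a ubiquitin-like modifier and a classical interferon target, had the same order among the controls: 228, 368 and 154 in the controls and 281, 241 and 226 in the FEAT clones. The control range was 2.91-fold, and again all FEAT clones fell inside it (0.12 ± 0.30, limma adjusted p = 0.939). The Isg15 difference turned to -0.26 without control 3.

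Gbp3, the neighbouring guanylate-binding gene, read 90.1, 169 and 99.7 in the controls and 107, 108 and 101 in the FEAT clones. Among the controls only control 2 exceeded its background limit, which put it at least 2.19-fold above the dimmest control by this probe and at least 2.02-fold by a second one. Parp14, an ADP-ribosyltransferase, read 82.5, 114 and 76.6 in the controls and exceeded the limit in control 2 alone, by at least 1.25-fold over the dimmest control. Bst2 (tetherin), which holds virions at the cell surface and is named here after its values were seen, read 137, 203 and 140 in the controls and 145, 135 and 152 in the FEAT clones, control 2 being the only high clone. Igtp, an immunity-related GTPase, was near the limit in all clones, at 85.1, 104 and 90.8 against 106, 97.2 and 91.0.

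**Figure D3:**
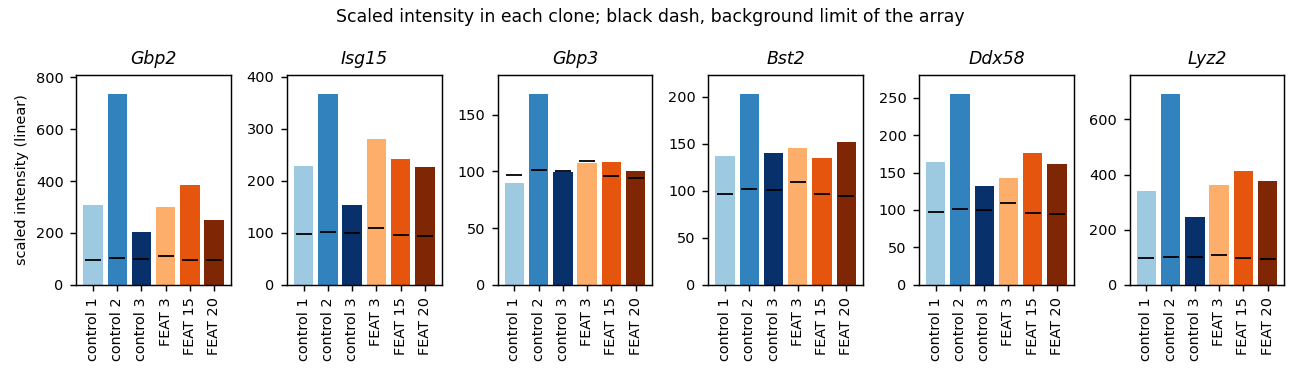
Scaled linear intensity of Gbp2, Isg15, Gbp3, Bst2, Ddx58 and Lyz2 in each clone (1 array per bar; blue, control clones; orange, FEAT clones), with a black dash at the background limit of each array. Control 2 is the highest bar in every panel, for example 737 for Gbp2 and 368 for Isg15. The genes were picked for this pattern, and for others, such as B2m and H2-D1, control 2 was the lowest control. Ddx58 and Lyz2 are not of the 45 genes.

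A normalized range of at least 2-fold over the 3 control clones was found for 4 of 34 genes (11.8%: Isg15, Gbp2, Gbp3 and Parp14), against 1.93% of all genes tested. For Parp14 the lower values were at background, and its bound of 1.25-fold does not reach 2-fold. Over the 3 FEAT clones it was found for 0 of 34, against 2.01%. Restricted to genes above the limit on all 6 arrays, the counts were 2 of 20 (Isg15 and Gbp2) against 2.05% for the controls and 0 of 20 against 2.08% for the FEAT clones. The control count fell to 2 on values without background correction, and to 0 without control 2 and 2 without control 3. The median range over the controls was 0.49 on the log2 scale in the 34 genes and 0.32 in all genes, and over the FEAT clones 0.29 in both. The control range exceeded the FEAT range in 27 of 34 genes, and in 54.4% of all genes. Ifit2 and Psmb10 were among those with the wider range over the FEAT clones. Isg15, Gbp2, Gbp3 and Parp14 all peaked in control 2, so their control ranges share that array and are not separate observations. Because the genes were chosen with earlier results of these data known, the shares set beside all genes are a description and not a test.

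**Figure D4:**
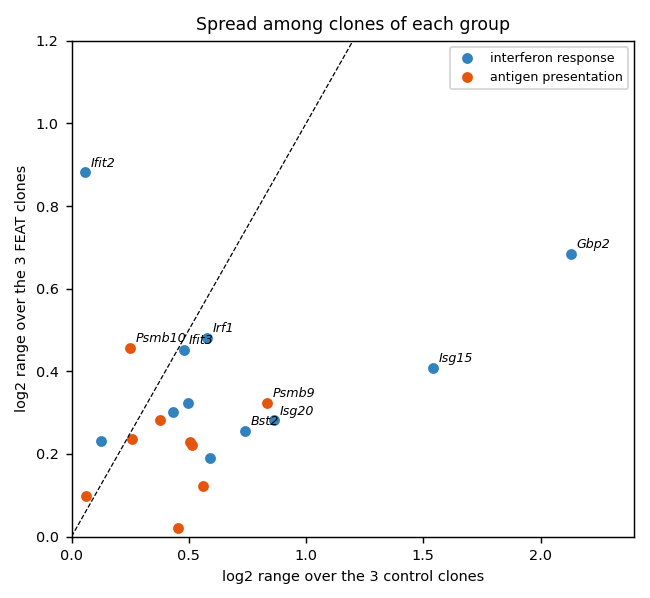
Log2 range over the 3 FEAT clones (vertical) against the log2 range over the 3 control clones (horizontal) for the 20 genes above the background limit on all 6 arrays, with a dashed line where both are equal. Gbp2 at 2.13 and Isg15 at 1.54 have the widest control ranges, and Ifit2 has the widest FEAT range at 0.88.

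The control clones did not keep one order through the set. By normalized value, control 2 was the highest control for 8 of 20 genes: Irf1, Isg15, Bst2, Gbp2, Ifi35, Tap1, Tapbp and H2-K1. It was the lowest control for 7 others: Irf9, Isg20, Psmb9, Tap2, H2-D1, H2-T23 and B2m. Control 1 was highest for 11, among them Stat2, Ifit3, Psmb9, Tap2, H2-D1 and B2m, and control 3 for Irf9 alone. Control 3 was lowest for 11, among them Irf1, Isg15, Gbp2, Ifit3 and Ifi27. Over all 8517 genes above the limit on all arrays, control 1 was highest in 30.9%, control 2 in 34.4% and control 3 in 34.7%. Control 2 was lowest in 33.4% and control 3 in 32.9%. The counts for control 2, 8 and 7 of 20, are near its shares over all genes. Those of the other controls lay further from their shares. Control 1 was highest for 11 and lowest for 2 of 20, against 33.7% lowest over all genes. Control 3 was highest for 1 and lowest for 11, and it was above the mean of the controls in 3 of 20 genes, against 51.4% of all genes. These departures were not tested. Gbp2 and Isg15 peaked in control 2, which was the lowest of the controls for B2m and the H2-D1 heavy chain. Where several probes of a gene exceeded the limit on all arrays (8 genes), the highest control was the same by every probe in 7 genes, H2-K1 being the exception, and the highest FEAT clone in 3.

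**Figure D5:**
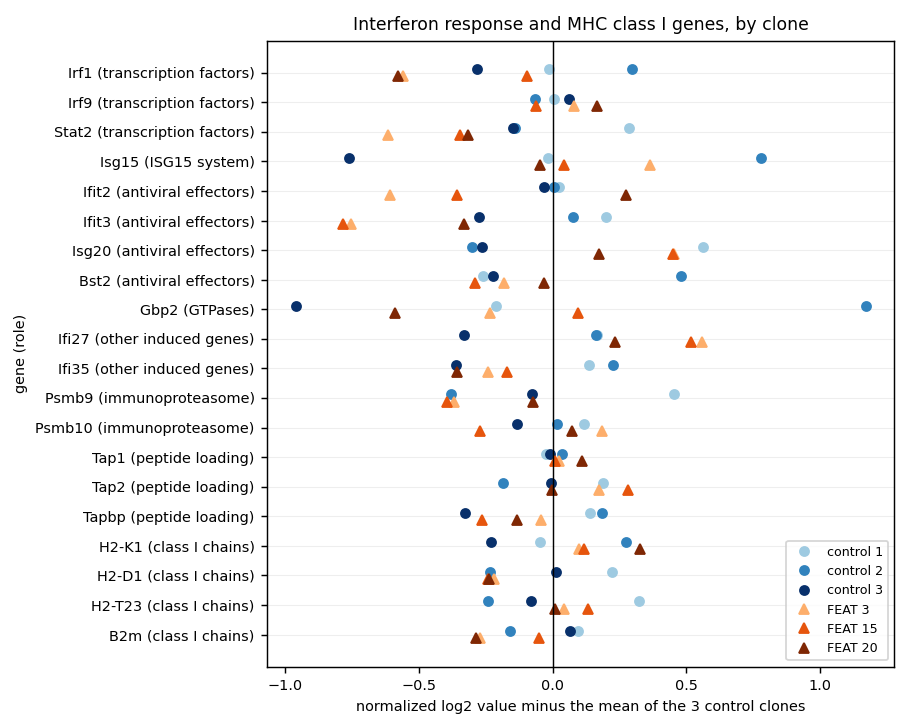
Normalized log2 value of each clone minus the mean of the 3 control clones for the 20 genes above the background limit on all 6 arrays, ordered by role (circles, control clones; triangles, FEAT clones). Control 2 is to the right for Gbp2, Isg15 and Bst2 and to the left for Psmb9, H2-D1, H2-T23 and B2m.

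Other genes of the pathway were read from lists by function, and none was called. The receptor and kinase list had 8 of 9 genes on the array above the limit on all arrays, with a median log2 difference of 0.12 and 0 called. Its smallest p-values belonged to Il10rb (0.23), Stat3 (0.27) and Jak2 (0.22, and 0.06 by a second probe), a receptor chain, a transcription factor and a kinase. Among 10 brakes on the pathway, 0 were called, and the smallest p-values were those of Ptpn6, which was not above background on any array, Socs3 (0.32), which inhibits JAK kinases, and Ptpn11 (0.22). Of 15 further sensors, adaptors and IRFs on the array, 0 were called. Cgas, the sensor of cytosolic DNA, came nearest: it read 1456, 1513 and 1430 in the controls and 2077, 2063 and 2177 in the FEAT clones, without overlap. Its log2 difference was 0.51 ± 0.12 (SE, n = 3 and 3, limma adjusted p = 0.185), whereas a dimmer Cgas probe gave 0.09. Ticam1 (-0.32) and Irf5 (0.39) followed in that list.

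Of 33 other interferon-induced genes on the array 23 were tested and 0 were called, with a median log2 difference of -0.10. Irgm1, a GTPase of autophagy and parasite defence, read 16982, 14236 and 16645 in the controls and 13094, 12051 and 10967 in the FEAT clones. The groups did not overlap, and the log2 difference was -0.37 ± 0.14 (SE, n = 3 and 3, limma adjusted p = 0.448). A dimmer Irgm1 probe above the limit on all arrays read 499, 653 and 415 against 422, 465 and 597, with overlapping groups and a difference of -0.10. Lgals9 (-0.39, and -0.18 by a second probe) and Eif2ak2 (PKR, -0.33) had the next smallest p-values. Of 13 other antigen presentation genes 10 were tested and 0 were called, with a median of -0.13. Tapbpl, a peptide editor of class I, read 381, 511 and 355 against 303, 279 and 343 without overlap (-0.48 ± 0.17, limma adjusted p = 0.411). H2-M3, which presents formylated peptides, gave -0.46 ± 0.17 (limma adjusted p = 0.422), and Psme1, a proteasome activator subunit, -0.29.

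Within these lists a few genes had the Gbp2 pattern, and they are named after their values were seen. Ddx58 (RIG-I), a sensor of viral RNA, read 164, 255 and 132 in the controls and 143, 176 and 162 in the FEAT clones, a control range of 2.34-fold. The chemokines Cxcl10 and Ccl5, both interferon targets, exceeded the limit in control 2 alone, at 138 and 127, by at least 1.66-fold and 1.48-fold over the dimmest control. Psme2 read 745, 1106 and 580 in the controls, a range of 1.99-fold. Others did not have it. Of the 17 other interferon-induced genes above the limit on all arrays, control 2 was the highest control for 8. It was the lowest for 5, Eif2ak2 and Ube2l6 among them, and control 3 was the lowest for 11. Of the 9 other antigen presentation genes, these counts were 6, 1 and 7. Over all genes above the limit on all arrays, the shares were 34.4%, 33.4% and 32.9%.

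Of the 2 leukocyte markers above the limit, Lyz2 was highest in the same control clone and Cd14 was not. Lyz2, lysozyme of macrophages, read 341, 694 and 246 in the controls and 361, 414 and 376 in the FEAT clones, a control range of 3.20-fold, and a second probe also peaked in control 2. Cd14, a receptor for lipopolysaccharide, read 706, 647 and 738 in the controls, control 2 being the lowest of them, and 506, 700 and 516 in the FEAT clones. The scaled intensity summed over the 12 leukocyte and antigen-presenting cell markers was 1757 to 2133 in the controls, highest in control 2, and 1630 to 1873 in the FEAT clones. Without Lyz2 the sum over 11 markers was 1437, 1439 and 1511 in control 1, 2 and 3 and 1253 to 1459 in the FEAT clones. Ptprc, Csf1r, Itgam and Adgre1 were above the limit in no clone. Of the 9 fibroblast markers above the limit on all arrays, control 2 was the highest control for 4 and the lowest for 3. Whether Lyz2 bears on the control 2 values of the set was not tested.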

How the data were processed

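Total RNA of 6 NIH3T3 clones was extracted on RNeasy columns, amplified with a TotalPrep kit and hybridised to 1 Illumina mouse array per clone, per the labels. The submitters' processing notes name BeadStudio, whose version is not given in the sources used here. Per array, the authors deposited linear probe intensities, with no detection p. The deposited value table held the same intensity values times 1 factor per array (0.925 to 1.10), and the text prints these.

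In R 4.3.3 with limma 3.58.1, normexp (offset 16) was fitted to the deposited intensities, because neqc as planned needs detection p, and followed by quantile normalization and log2. Dim probes were left out by keeping the brightest 60% by mean, 27169 probes. FEAT was tested against control with lmFit and eBayes, two-sided, with Benjamini-Hochberg adjustment over all probes, at 0.05. The brightest probe stood for a gene. The array annotation gave 34885 of 45281 probes 1 gene symbol. Samples were grouped by title.

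The background limit, set after the data were seen, lay 3 SDs above an array's commonest log2 intensity, the SD being that of the values under this mode. A gene below the limit in a clone has only a bound there: the bright clone over the higher of the limit and the dim clone's value. The genes and lists were chosen with earlier results of these data known. Named were genes above the limit on at least 1 array with a call, 1 of the 3 smallest p-values of their role or a 2-fold range over the 6 clones, and, of other pathway genes, calls and the 3 smallest p-values of a list.

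On simulated arrays with 50 bright probes changed per fold, the fit recovered 28% at 1.5-fold, 100% at 2-fold, 100% at 3-fold and 98% at 4-fold. Changes of 1.5-fold would thus mostly be missed. Of 179 probes called there, 16 had not been changed. The changed probes were drawn from the whole array, not from the set. The 100% at 2-fold need not hold for genes that vary widely among clones, such as Gbp2 (SE 0.41) and Isg15 (SE 0.30). Alternatives were no normexp, an offset of 50, the deposited value table, no filter, the top 40% of probes, eBayes with trend and robust, other probes, genes above the limit on all arrays (chosen after seeing the data) and each clone left out. Promoter sequences are RefSeq's (GRCm38.p6).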

Additional observations from a re-analysis of the deposited data

How the results depend on the processing

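No gene of the set was called under any alternative run, clones left out included. The count of all probes called, 50, ran from 0 (without control 1) to 158 (without control 2) as single clones were left out, with 10 without control 3 and 18 without FEAT 3. The median log2 difference of -0.085 ran from -0.144 to 0.029 over clones left out, and was -0.157 with the top 40% of probes and with genes above the limit on all arrays. The count of genes with a 2-fold control range, 4, was 2 without normexp, 2 with an offset of 50, 2 with the deposited value table and 2 among genes above the limit on all arrays, Gbp2 and Isg15 each time, and ran from 0 to 4 over clones left out. Of 262 alternative values of 22 named genes, 252 kept their direction and none was called. The reversals were those of Isg15 (-0.26 to 0.51 over clones left out), Gbp2 (-0.72 to 0.34), Gbp3 (-0.44 to 0.22), Parp14 (-0.30 to 0.22) and Psmb10 (-0.099 to 0.13, and 0.023 with the deposited value table). No paired analysis was possible because the labels give no pairing of clones between the groups.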
